A study of Caenorhabditis elegans with 12 samples.

Results

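The 8 genes described here are the 5 pmp genes, which encode ABC transporters of the peroxisomal membrane protein family, and 3 prx genes, which encode peroxins, the proteins that build peroxisomes. They were taken by symbol (pmp-1 to pmp-5, prx-5, prx-10 and prx-11) from the 46726 genes of the deposited N2 table, and all 8 were among the 14965 genes that were tested, those averaging 5 normalized counts or more over the 6 libraries. The members were selected on their normalized counts in treated and control libraries, so the differences of the 8 genes between these groups are given as a description and have no p-value. RNA-seq was done on late L1 larvae of the wild-type strain N2, from liquid cultures on HB101 bacteria at 20 °C that were split from a single population 6 h after hatching. The "N2 with ascarosides" group (3 treated libraries, numbered 1 to 3 as in the table) received ascr#2, ascr#3 and ascr#8 for 3 h. The sample labels give a total of 5 µM, and a lower total is stated elsewhere in the sources. The "N2 without ascarosides" group (3 control libraries, numbered 4 to 6) received ethanol. The daf-22(ok693) libraries were not analysed here.

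Peroxisomes are small organelles that shorten very long and branched fatty acids by beta-oxidation, make the first steps of ether lipids and break down hydrogen peroxide. ABC transporters of the D family are made as short units that pair in the membrane and carry acyl-CoA into the organelle. Peroxins bring in the enzymes: PRX-5 is the counterpart of the receptor that binds the C-terminal targeting signal of matrix proteins, the RING proteins (PRX-10 among them) are part of the complex that recycles this receptor, and PEX11 proteins, the family of PRX-11, shape and divide the organelle. In C. elegans the same organelle trims the side chains of the ascaroside pheromones themselves.

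The libraries held between 11133417 and 19116807 reads on genes, and behind the 8 genes stood 99 to 1365 reads per gene and library. The values are normalized counts, the authors' reads per gene divided by the size factor of the library. Whole larvae were sequenced. Of the intestinal markers 5 of 6 could be matched by name, and all 5 and all 5 hypodermal markers were detected, while 4 of 6 yolk protein genes, all 31 sperm msp genes and all 5 early embryonic markers had a mean under 5 normalized counts. The 6 yolk protein genes together summed to between 47.2 and 54.2 normalized counts in treated and between 57.6 and 63.8 in control libraries. The most abundant, vit-1, averaged 41.5 in treated and 36.7 in control libraries, and vit-6, near the floor, 5.5 and 11.4. Neither was called (adjusted p = 0.836 and 0.477 from limma). In RNA from whole animals, fewer cells of a type and less RNA per cell cannot be told apart.

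pmp-5 was the member that differed most. It had 239, 186 and 189 normalized counts in treated libraries 1 to 3 and 482, 646 and 519.7 in control libraries 4 to 6. The lowest control value lay far above the highest treated one. The group means were 205 ± 29.9 with and 549 ± 85.8 without ascarosides (SD, n = 3 each), a log2 fold change of -1.42 (standard error 0.15, limma) or 2.67-fold lower. A log2 fold change at least this low was found in 93 of the 14965 tested genes (0.621%). pmp-5 (WBGene00004062) lies on chromosome V in the WBcel235 annotation, with 2 transcripts that encode proteins of 565 and 598 residues, and holds the microRNA gene cel-mir-70 outside its exons. Its relative in humans, ABCD4, acts in the release of cobalamin from lysosomes, and RNA counts do not show in which organelle the worm protein sits. The 5 matched intestinal markers summed to between 21742 and 25142 normalized counts in treated and between 21321 and 28758 in control libraries, and the 5 hypodermal markers to between 23055 and 25003 and between 24312 and 24939. Both sums overlapped between the groups, although 3 of the 5 hypodermal genes taken singly did not. Groups did not overlap in 19.3% of all tested genes. The most abundant gene of each list weighed most in its sum, at a mean of 15681 (intestine) and 15198 (hypodermis) normalized counts. Singly, the hypodermal log2 fold changes were -0.21 for elt-1, -0.38 for lin-26, -0.25 for dpy-7, -0.25 for rol-6 and 0.072 for dpy-13. The intestinal ones were mixed, at -0.17 for elt-2, 0.18 for elt-7, 0.11 for ifb-2, -0.16 for act-5 and 0.78 for ges-1. Of the 10 genes 1 was called, the intestinal esterase ges-1, which rose (log2 fold change 0.78, adjusted p = 4.20e-04 from limma). Their part in the pmp-5 difference was not tested.

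**Figure D1:**
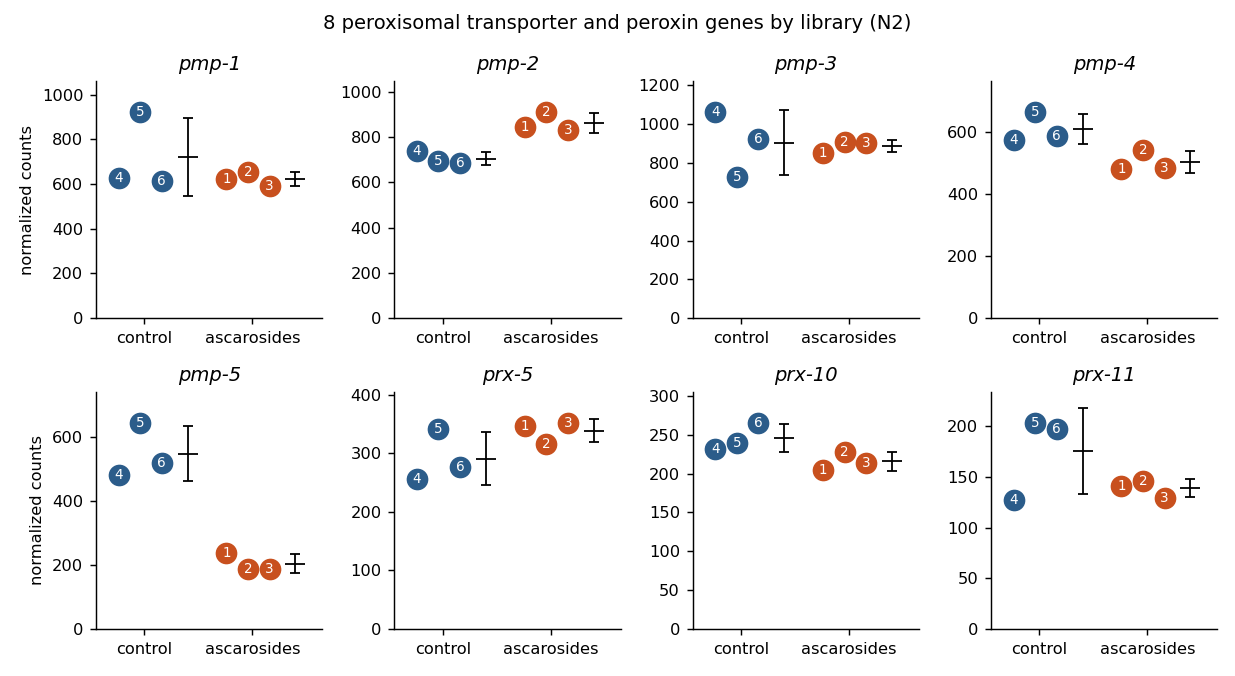
Normalized counts (y axis, from 0) of the 8 genes in each library, with blue points for control libraries 4 to 6, orange points for treated libraries 1 to 3, the library number in each point, and the group mean ± SD in black (n = 3). The pmp-5 values fall into separate ranges, 186 to 239 with ascarosides and 482 to 646 without, whereas pmp-1, pmp-3, prx-5 and prx-11 overlap between the groups.

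The other pmp genes differed by far less, and not all in the same direction. pmp-2 had 843, 911 and 829 normalized counts in treated and 738, 693 and 684 in control libraries. It was the only member of the 8 with every treated value above every control value, at group means of 861 ± 43.6 and 705 ± 28.5 (SD, n = 3 each). Its log2 fold change was 0.29 (standard error 0.109). pmp-4 had 479.5, 543 and 484 normalized counts in treated and 575, 664 and 587 in control libraries. Here every treated value lay under every control value, with a log2 fold change of -0.28 (standard error 0.12). The gap between the highest treated and the lowest control value was smaller than the SD of either group (35.4 and 48.4).

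pmp-1 lies next to pmp-2 on chromosome II, on the same strand. It had 624, 652 and 592 normalized counts in treated and 625, 922 and 613 in control libraries, so that a single high control library, number 5, set its mean apart. Its log2 fold change was -0.18 (standard error 0.144) and 0.0085 without control library 5. The ratio of pmp-2 to pmp-1 normalized counts was 1.38 ± 0.0285 in treated libraries (SD, n = 3) and 1.18, 0.751 and 1.12 in control libraries 4 to 6. The lowest treated ratio was 1.35, above all controls. The coding neighbour on the other side of pmp-2, acer-1, rose from 9967 ± 2694 to 16888 ± 1778 normalized counts (SD, n = 3 each), with an adjusted p of 0.0077 (limma), while C44B7.7 on the other side of pmp-1 was not called (log2 fold change -0.23, adjusted p = 0.613).

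pmp-3 is widely used as a reference gene for quantitative PCR in this species. It had 852, 908 and 902 normalized counts in treated and 1062, 726 and 923 in control libraries. The treated values lay inside the range of the controls, and the means were 887 ± 30.7 and 904 ± 169 (SD, n = 3 each), a log2 fold change of -0.0094 (standard error 0.131). Over the 6 libraries its coefficient of variation was 12.2%, larger than that of 63.8% of the 3363 tested genes within a factor of 2 of its mean. The spread came from the controls, where it was 18.7% against 3.46% in the treated libraries. An exon of pmp-3 overlaps one of slc-25A29 on the opposite strand in the annotation, and slc-25A29 rose (log2 fold change 0.70, adjusted p = 0.0249 from limma). Whether the authors' counting used the strand is not given in the sources used here, so reads from this stretch are uncertain. The same holds for pmp-4 and T02D1.4, which was not called (log2 fold change 0.15, adjusted p = 0.862).

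Per kilobase of exon, the 5 pmp genes together had 1502 ± 83.8 normalized counts in control and 1329.5 ± 48.3 in treated libraries (SD, n = 3 each). The totals did not overlap, from 1426 to 1592 against 1291 to 1384. Without pmp-5 they did, at 1268.6 ± 57.3 and 1242 ± 53.8 (SD, n = 3 each). pmp-5 made up 13.8%, 17.2% and 15.5% of the total in control libraries 4 to 6 and 7.74%, 5.72% and 6.22% in treated libraries 1 to 3. pmp-2 went from 21.8% ± 1.45 to 29.9% ± 0.433 (SD, n = 3 each), and these shares did not overlap either. Part of this rise in share follows from the lower pmp-5 value in the total. pmp-2 itself went from 326 ± 13.2 to 398 ± 20.2 normalized counts per kilobase (SD, n = 3 each). The shares of pmp-1, pmp-3 and pmp-4 overlapped between the groups.

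**Figure D2:**
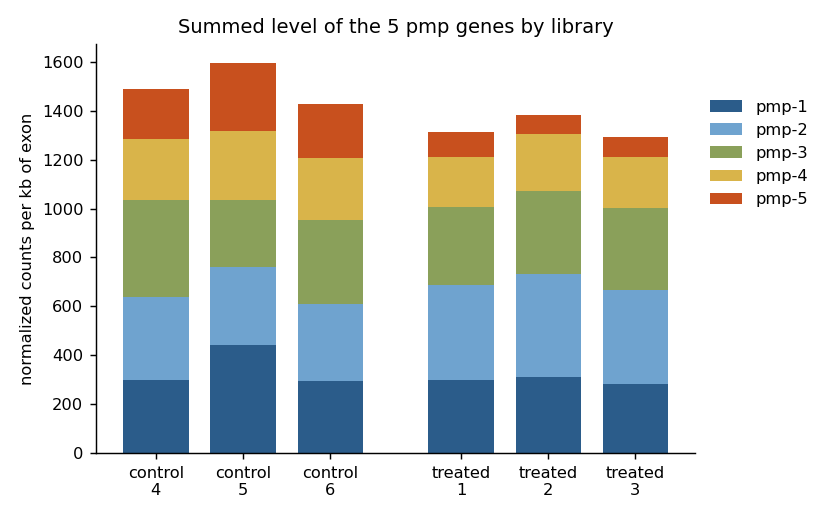
Summed level of the 5 pmp genes in each library, in normalized counts per kilobase of exon (y axis, from 0), with a colour for each gene. The pmp-5 segment on top is shorter in the 3 treated bars (5.72% to 7.74% of the total) than in the 3 control bars (13.8% to 17.2%).

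Among the peroxins, prx-5 had 346, 316 and 352 normalized counts in treated and 255, 341 and 276 in control libraries. Control library 5 lay within the treated range, and the log2 fold change was 0.23 (standard error 0.143). prx-11 had 142, 146 and 129 normalized counts in treated and 127, 204 and 197 in control libraries. The lowest value of all was a control, and the log2 fold change of -0.31 (standard error 0.191) became -0.53 without that library, number 4, and -0.19 without number 5. Both genes thus spread more widely in the controls than in the treated libraries.

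prx-10 had 205, 228 and 214 normalized counts in treated and 232, 239 and 265 in control libraries, a log2 fold change of -0.18 (standard error 0.142). The groups did not overlap, but the highest treated and the lowest control library were nearly level. The gene (WBGene00006946, chromosome III) has 8 transcripts in the WBcel235 annotation. Of these 2 carry a coding sequence of 942 bases and 6 one of 1080 bases, and the sequences share 0 coding bases. Under this gene model the count of the gene sums messages for separate proteins, and a change of either alone cannot be read from it. Whether the authors' counting used the same model was not checked.

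Over the 8 genes the median log2 fold change was -0.18, against 0.0019 over all 14965 tested genes, with 2 values above and 6 below 0. Without pmp-5 the median of the other 7 was also -0.18. In 4 of the 8 genes the groups did not overlap, 1 higher (pmp-2) and 3 lower (pmp-4, pmp-5 and prx-10), where this held for 19.3% of all tested genes (9.78% higher and 9.53% lower). pmp-5 was the member lower by at least 2-fold, as were 1.68% of all tested genes. Since the genes were chosen with this contrast in view, nothing is read from these shares. With 3 cultures in each group, an exact permutation test of a single gene (two-sided) cannot go below p = 0.1.

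**Figure D3:**
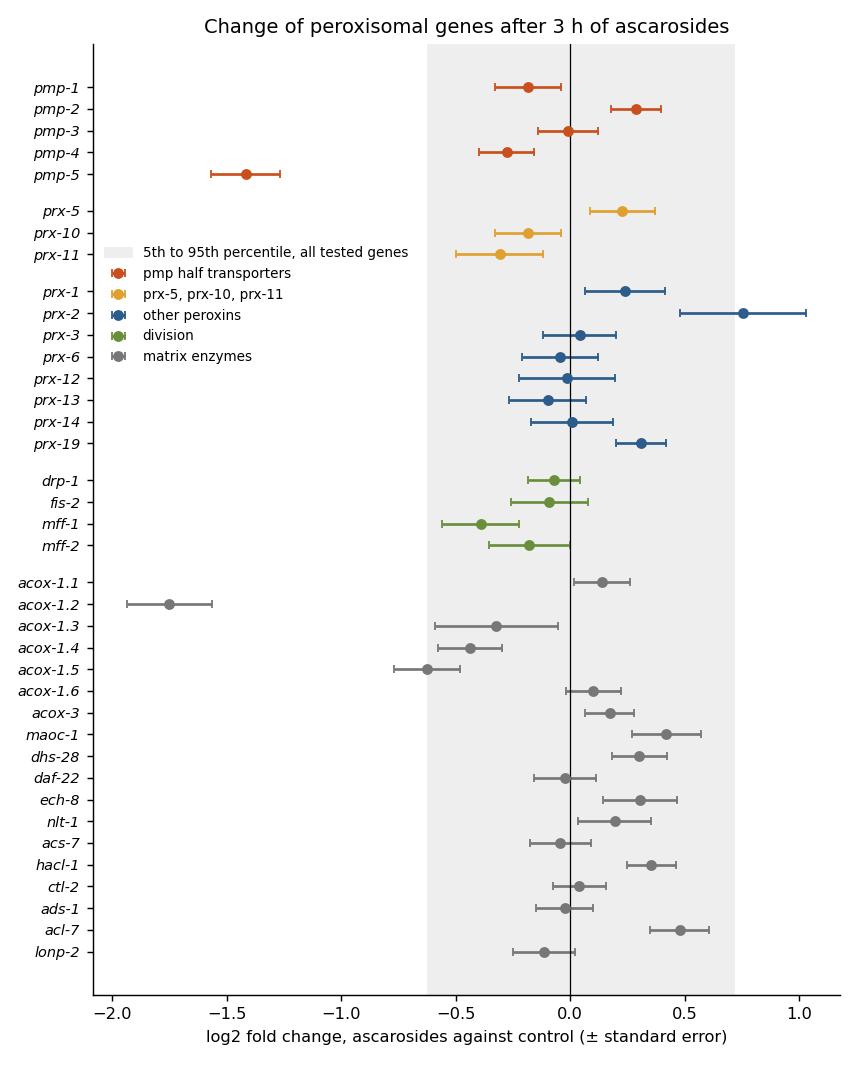
Log2 fold change with ascarosides against control (x axis, points, ± standard error from limma) for the 8 genes and the tested genes of the lists of other peroxins, division and matrix enzymes. The grey band spans the 5th to 95th percentile of all tested genes. pmp-5 (-1.42) and acox-1.2 (-1.75) lie far to the left of the band, and the other 7 of the 8 genes lie inside it.

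The control libraries varied more than the treated ones in 7 of the 8 genes, all but pmp-2, by the coefficient of variation. The same was true of 68.8% of all tested genes. In control library 5 the highest of the 3 control values was found for 5 of the 8 genes (pmp-1, pmp-4, pmp-5, prx-5 and prx-11) and the lowest for pmp-3. Control library 4 held the lowest value for 5 of them. With each library left out in turn, the log2 fold change of pmp-5 stayed between -1.53 and -1.29, that of pmp-2 between 0.25 and 0.32, that of pmp-4 between -0.33 and -0.21, that of prx-5 between 0.14 and 0.35 and that of prx-10 between -0.23 and -0.13. It crossed 0 for pmp-1 (-0.29 to 0.0085) and pmp-3 (-0.16 to 0.12).

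**Figure D4:**
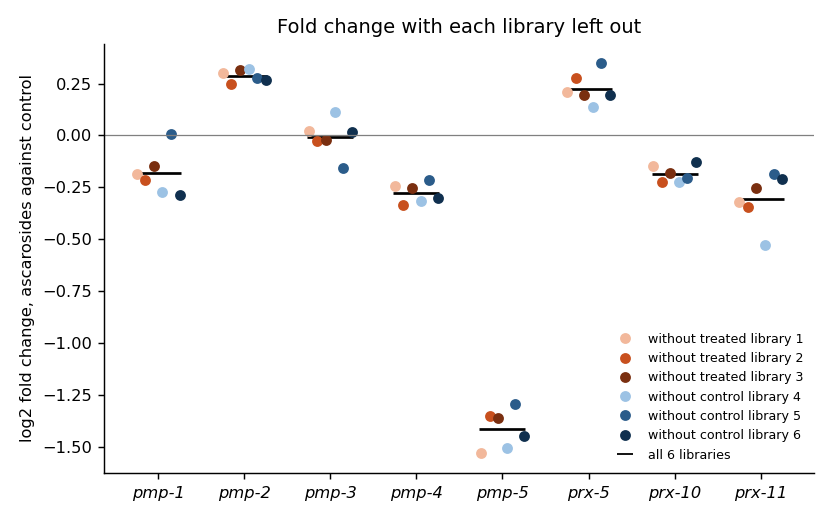
Log2 fold change with ascarosides against control (y axis) of the 8 genes with all 6 libraries (black bars) and with each library left out (points, orange for treated and blue for control libraries). The points of pmp-5 lie between -1.53 and -1.29, and those of pmp-1 and pmp-3 fall on both sides of 0.

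In the control larvae the level per kilobase of exon was highest for pmp-1 (345 ± 84 normalized counts per kilobase, SD, n = 3), pmp-3 (337 ± 62.9) and pmp-2 (326 ± 13.2). The ranges of these 3 overlapped, so their order is not settled. All 3 values of pmp-2 were above those of the next gene, prx-11 (273 ± 66), but only just (lowest 316.5 against highest 315.7). The ranges of pmp-1 and pmp-3 overlapped with that of prx-11. pmp-4 (261 ± 20.8), pmp-5 (233 ± 36.5) and prx-5 (188 ± 29) followed, each overlapping with the gene before it. prx-10 was lowest, at 92.2 ± 6.67, below all values of prx-5. Under the WBcel235 gene model its value joins the separate coding sequences of the gene over all their exons, so it is not the level of the peroxin message alone. The median over all tested genes was 142 normalized counts per kilobase, so that 7 of the 8 genes lay above it. With ascarosides pmp-5 stood at 87.1 ± 12.7 (SD, n = 3), near prx-10 (81 ± 4.42), with 101.7, 79.2 and 80.3 in treated libraries 1 to 3.

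**Figure D5:**
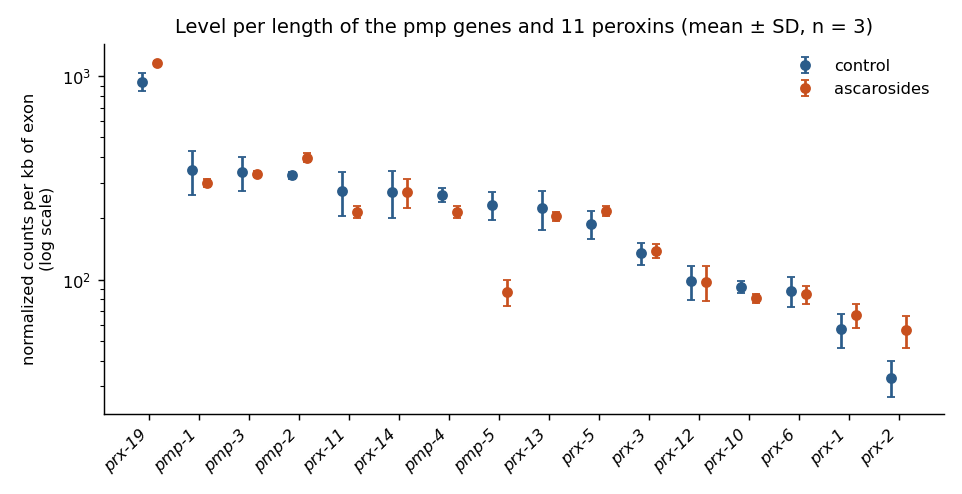
Level of the 5 pmp genes and 11 peroxin genes in normalized counts per kilobase of exon (y axis, log scale), as mean ± SD (n = 3) in control (blue) and treated (orange) libraries, ordered by the control mean. prx-19 is highest (942 in controls), prx-2 lowest (33), and pmp-5 stands at 233 in control and 87.1 in treated libraries.

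The other 8 peroxins were taken as a list by name, and all 8 were tested. None was called at an adjusted p under 0.05 by limma, edgeR or DESeq2 (0 of 8 in each), which called 3.52% (2.06% higher and 1.46% lower), 3.6% and 4.79% of all genes they tested. At an unadjusted p under 0.05 stood 2 of 8 with each tool, against 15.2% of all tested genes in limma. The median log2 fold change of these 8 peroxins was 0.025. In limma the 2 were prx-19 and prx-2. prx-19, the counterpart of the chaperone that brings new proteins to the peroxisomal membrane, had 1419, 1420.1 and 1363 normalized counts in treated and 1122, 1253 and 1028 in control libraries (log2 fold change 0.31, standard error 0.109, adjusted p = 0.159 from limma). prx-2, a RING protein gene, had 55.6, 48.5 and 69.1 in treated and 34.2, 40.5 and 26.9 in control libraries, a low level (log2 fold change 0.76, standard error 0.275, adjusted p = 0.172 from limma). In these 2 genes the groups did not overlap. The log2 fold changes of prx-1, prx-3, prx-6, prx-12, prx-13 and prx-14, which include the docking proteins PRX-13 and PRX-14 and the ATPases PRX-1 and PRX-6, lay between -0.099 and 0.24, and the treated and control values overlapped in each.

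Of the 5 genes listed for peroxisome division, which also act on mitochondria, 4 were tested and 0 were called by limma, edgeR or DESeq2 (1 of 4 at an unadjusted p under 0.05 in each, mff-1 in limma). Of all genes they tested, these tools called 3.52%, 3.6% and 4.79%, and 15.2% stood at an unadjusted p under 0.05 in limma. mff-1 had 142, 115 and 143 normalized counts in treated and 156, 186 and 184 in control libraries (log2 fold change -0.39, adjusted p = 0.272 from limma). The dynamin gene drp-1 had a log2 fold change of -0.071. fis-1 had 1.9 normalized counts in treated library 2 and 0 reads in the other 5 libraries.

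Of the 18 genes of matrix enzymes, the cargo of the import machinery, 2 fell, 1 rose and 15 did not pass the test (limma, adjusted p under 0.05), where 1.46% of all tested genes fell and 2.06% rose, and the median log2 fold change was 0.07. edgeR called 2 of the 18 and DESeq2 4. acox-1.2, which encodes an acyl-CoA oxidase of ascaroside side-chain shortening, fell further than pmp-5. It had 529, 614 and 568 normalized counts in treated and 1539, 2969 and 1545 in control libraries (log2 fold change -1.75, standard error 0.187, adjusted p = 5.11e-05 from limma). In both genes control library 5 was the highest of the 6. acox-1.5, another acyl-CoA oxidase gene, fell from 771 ± 151 to 495 ± 61 normalized counts (SD, n = 3 each, log2 fold change -0.63, adjusted p = 0.0193 from limma), but the adjusted p was between 0.0513 and 0.145 without treated library 1 or 2 or control library 5 or 6. acl-7, an acyltransferase gene of ether lipid synthesis, rose from 842 ± 161 to 1159 ± 46.5 normalized counts (SD, n = 3 each, log2 fold change 0.48, adjusted p = 0.0499 from limma). This call was lost with edgeR (adjusted p = 0.0535), with a pseudocount of 0.5 (0.0534), with a minimum mean of 50 (0.0507), with quantile normalization (0.091) and without any treated library or control library 6 (0.146 to 0.269). The enzymes that complete the beta-oxidation of ascarosides, maoc-1, dhs-28 and daf-22, had log2 fold changes of 0.42, 0.30 and -0.021 and were not called (adjusted p = 0.164, 0.225 and 0.966 from limma). Without control library 5, in which all 3 had their highest control value, maoc-1 and dhs-28 were called (adjusted p = 0.00772 and 0.0409 from limma). hacl-1, which encodes a 2-hydroxyacyl-CoA lyase, was called higher with DESeq2 (adjusted p = 0.0407) and without control library 4 (0.01), and acox-1.4 lower without control library 4 (0.017), but neither was called by limma with all 6 libraries (0.0905 and 0.105).

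Of 49 other ABC transporter genes 42 were tested, with a median log2 fold change of -0.096. At an adjusted p under 0.05 in limma 3 fell, 0 rose and 39 did not pass, where 1.46% of all tested genes fell and 2.06% rose. All 3 were P-glycoprotein genes, a family of full-length export pumps. The tested genes of this family lay on both sides of 0, from -0.67 for pgp-14 to 0.62 for pgp-5 (not called, adjusted p = 0.128 from limma). pgp-14 fell from 3269 ± 217 to 2059 ± 135 normalized counts (SD, n = 3 each, log2 fold change -0.67, adjusted p = 0.00111), pgp-9 from 438 ± 35.2 to 307 ± 28.1 (-0.51, adjusted p = 0.0396) and pgp-2 from 1237 ± 71.8 to 918 ± 109 (-0.43, adjusted p = 0.0473). The pgp-9 and pgp-2 calls were lost without any treated library or control library 5 or 6 (adjusted p = 0.0725 to 0.336), that of pgp-2 also with edgeR (0.0533) and a pseudocount of 0.5 (0.05002), and that of pgp-9 also with quantile normalization (0.056). The pmp-5 difference was larger in size than any of the 42 log2 fold changes, which lay between -0.67 and 0.62. Since pmp-5 was chosen with this contrast in view, nothing is read from that order.

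Over the 10874 genes averaging 50 normalized counts or more, those whose values over the 6 libraries were most like pmp-5 were clec-170 (Pearson r = 0.995), Y6G8.2 (0.993) and hut-1 (0.99). clec-170 had 81.2 normalized counts in treated and 186 in control libraries on average. Those most like pmp-1, the member with the highest level per length, were memb-1 (0.983), lpl-1 (0.982) and slc-36.2 (0.981). These are descriptions across 6 libraries that share a group difference, and 87 genes reached an r over 0.95 with pmp-5 and 43 with pmp-1.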

How the data were processed

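Worms were grown at 20 °C and 220 rpm, treated 6 h after hatching and collected after 3 h. Per the study's methods, the authors took single-end reads from polyadenylated RNA, aligned them with tophat2 to Ensembl WBcel215 and used HTSeq-count for gene counts. The deposited signal is this count after division by the DESeq size factor of its library. The submitters' processing notes name TopHat2, Bowtie, SAMtools, HTSeq, DESeq and edgeR and the build WBcel235, so no coordinates are given. The versions and the strand setting are not given in the sources used here. The deposited columns name a group but not a replicate number of the labels.

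The last 5 lines, counts not assigned to a gene (33.1% to 41.8% of the column totals), were left out. Most of these were labelled as alignments that were not unique (31.6% to 40.4% of the column totals). Symbols were found in the supplied name table for 43623 identifiers. Exon lengths, transcripts and neighbours came from the WBcel235 annotation, which may differ from the gene models behind the deposited counts. Dividing each column by its smallest value above 0 gave whole reads for 100% of the values (within 0.01 read).

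The R package limma (3.58.1, R 4.3.3), with lmFit, trended eBayes, two-sided p-values and a prior of 12.9 degrees of freedom, was run on log2(normalized count + 1), a scale that shrinks changes of low genes, with Benjamini-Hochberg adjustment over all 14965 tested genes. It called 527. edgeR 4.0.16 on the recovered reads called 538 and DESeq2 1.42.0 called 634. Further alternatives left out each library in turn, replaced the pseudocount by 0.5 or 5, removed the filter or raised it to 50, rescaled by quantiles or the upper quartile, or ran eBayes without trend or robustly. The fit was tested on simulated data. pandas 2.3.3, numpy 2.4.6 and matplotlib 3.10.9 under Python 3.11.15 served for tables and plots.

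The 8 genes and all lists were chosen with earlier results of these data known. Named were the 8 genes, the listed peroxins, division genes and matrix enzymes, called ABC transporters without overlap of the groups, and the 3 genes most like the member with the largest difference and the member with the highest level. Neighbouring genes and ges-1 were named after their values were seen. The cultures were split from a single population, so p-values measure only the spread between these cultures.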

Additional observations from a re-analysis of the deposited data

How the results depend on the processing

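No paired analysis was possible because replicate numbers of the labels are not in the column names, so no replicate block was run. The called genes went from 527 to 1 with eBayes without trend (1872 at an unadjusted p under 0.05), which also ended the calls of acox-1.2, acox-1.5, acl-7, pgp-14, pgp-9 and pgp-2, and with a library left out was lowest at 217 (treated library 2) and highest at 1440.0 (control library 4). The cause was not tested. The log2 fold changes of the 8 genes moved by less than the spread between replicates in all alternatives. With a library left out this could not come out otherwise, since leaving a single value out of 3 cannot move a mean that far. Changes of the filter or of eBayes leave the log2 fold changes of these genes as they are. The median of the 8 genes was -0.25 to -0.16 with a library left out. There the median of the other peroxins ranged from -0.11 to 0.11, that of matrix enzymes from -0.012 to 0.13 and that of other ABC transporters from -0.11 to -0.033. Outside the 8 genes, log2 fold changes that changed sign were prx-12 with edgeR (0.0045) and prx-14 with DESeq2 (-0.0076), and with a library left out prx-3 (-0.045 to 0.13), prx-6 (-0.19 to 0.057), prx-12 (-0.17 to 0.10), prx-13 (-0.30 to 0.013), prx-14 (-0.18 to 0.19), fis-2 (-0.21 to 0.14), daf-22 (-0.17 to 0.15), nlt-1 (-0.065 to 0.35), acs-7 (-0.17 to 0.031), ctl-2 (-0.078 to 0.12), ads-1 (-0.15 to 0.11) and lonp-2 (-0.25 to 0.019). None of these was called with all libraries. Among the 8 genes pmp-1 changed sign without control library 5 (0.0085), and pmp-3 with upper-quartile scaling (0.00079) and with a library left out (-0.16 to 0.12). Depth limited the low genes most, with 24 reads behind the lowest value of prx-2.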
